A study of Mus musculus with 4 samples.

Results

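The cytosolic ribosomal protein genes were taken as all genes whose array symbol is Rpl or Rps followed by a number and at most 1 further letter, together with the stalk genes Rplp0, Rplp1 and Rplp2 and the gene Rpsa. This rule on names found 186 probes for 80 genes among the 34816 gene names and unnamed features of the array, 48 of them for proteins of the large subunit and 32 for proteins of the small subunit. The cells were NIH3T3, an immortalised line of mouse embryonic fibroblasts, which expressed either wild-type EGFR, the receptor of epidermal growth factor, or a deletion mutant of EGFR. RNA of untreated cells at steady state was labelled with Cy3 and hybridised to 4 one-colour Agilent arrays, 2 for each receptor, and the comparison asks how the messenger RNAs of the ribosome differ between these cells. How much of EGFR is deleted and which vector was used are not stated in the labels, and no array of parental cells was analysed here. The 2 arrays of a group came from separate preparations of cDNA, and nothing in the labels says that they came from separate cultures, so that every p-value measures the spread between arrays, which may be technical.

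Ribosomal proteins coat the ribosomal RNA of the large and the small subunit, and growing cells make them in equal numbers at great cost. Their messenger RNAs are among the most abundant in a fibroblast and begin with a run of pyrimidines, the TOP motif (terminal oligopyrimidine tract), through which mTOR and the RNA-binding protein Larp1 set how much of each is translated. Growth factor receptors such as EGFR act on this system mostly through mTOR and the kinases that phosphorylate Rps6, a protein of the small subunit.

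Start-site windows from RefSeq (GRCm38.p6) show this feature of the family, and its absence at the start, for some of the members at the ends of the comparison and for a pair with clear runs. Each window holds 60 bases, from 30 before the annotated start to the 30 bases that begin with it, and capitals mark the longest run of C and T in it.
Rpl34, chr3:130730308-130730367, minus strand: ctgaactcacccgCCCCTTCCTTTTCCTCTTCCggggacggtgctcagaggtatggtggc
Rps27, chr3:90213619-90213678, minus strand: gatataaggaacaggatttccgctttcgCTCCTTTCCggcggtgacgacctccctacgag
Rps6, chr4:86857338-86857397, minus strand: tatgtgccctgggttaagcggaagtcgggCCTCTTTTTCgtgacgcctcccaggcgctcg
Rpl28, chr7:4792935-4792994, plus strand: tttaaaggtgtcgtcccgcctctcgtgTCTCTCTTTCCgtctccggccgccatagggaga
Rpl35, chr2:39005102-39005161, minus strand: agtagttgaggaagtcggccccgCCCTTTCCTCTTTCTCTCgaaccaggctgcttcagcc
Rps2, chr17:24720033-24720092, plus strand: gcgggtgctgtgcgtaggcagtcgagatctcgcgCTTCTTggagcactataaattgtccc
Rpl39l, chr16:10170198-10170257, plus strand: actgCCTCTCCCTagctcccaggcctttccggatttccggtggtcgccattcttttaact
Rps27l, chr9:66946056-66946115, plus strand: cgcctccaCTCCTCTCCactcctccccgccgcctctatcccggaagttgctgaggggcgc
In Rpl34, Rps27, Rps6, Rpl28 and Rpl35 the run lay across the annotated start. In the windows of Rps2, Rpl39l and Rps27l the longest run did not cross the start. In Rps2 it was short and began just after the start, and in Rpl39l and Rps27l, the paralogues of Rpl39 and Rps27, it lay upstream. By the wider rule given next, within 50 bases either side of a start, Rps2, Rpl39l and Rps27l each count as having a run.

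Of the 80 members, 59 had an entry in the promoter table. A run of at least 8 uninterrupted C or T that opens with C, on the strand of the gene and within 50 bases either side of a start, was present in 50 of the 59 members (84.7%) and in 32% of the 27025 genes of the table. The letters CCGGAAG, on either strand from 250 bases before a start to 50 after it, were present in 24 of the 59 members (40.7%) and in 9.93% of all genes. The letters CACGTG were present in 6 of 59 members (10.2%), against 8.09% of all genes, and TATAAA on either strand in 6 of 59 (10.2%), against 15.7%. A match is a run of letters and not a measured site.

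Signals were analysed as log2 of the processed spot intensity minus the 75th percentile of the same array, so that a level of 0 is the 75th percentile and a log2 fold change is the mean of the deletion-mutant arrays minus the mean of the wild-type arrays. A gene was represented by its brightest probe that both arrays of 1 group or of the other showed well above background. Of the 80 members, 78 passed this filter, 46 of the large and 32 of the small subunit, and all 78 were detected on all 4 arrays, so that none passed through 1 group only. The exceptions were Rpl3l and Rpl10l, paralogues of Rpl3 and Rpl10 known from muscle and testis, whose 3 probes were not well above background on any array. The representative probes were among the brightest of the array, with raw signals between 16681 and 256410 intensity units and array medians of 129670 and 140050 in wild-type and 120820 and 127840 in deletion-mutant cells, and none of their spots was marked as saturated.

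Ribosomal protein transcripts differed little between the cells. With the 75th percentile scaling, the 78 members had log2 fold changes between -0.19 (Rps27) and 0.17 (Rpl39l), a span of 1.14-fold lower to 1.13-fold higher, with a median of -0.035, against a median of 0.066 over all 18093 features. None of the 78 members passed an adjusted p of 0.05 in limma, higher or lower (lowest adjusted p = 0.0656), and 3 had an unadjusted p under 0.05. Over all features, 58.8% passed, 34.6% higher and 24.2% lower in deletion-mutant cells. This count of 0 depended on the scaling. After median scaling 21 members (26.9%) were higher and 0 lower. Of all features 65.4% then passed, 8696 higher and 3140 lower. The authors' deposited log2 values, which are scaled nearly alike, gave the same counts of members. When the 75th percentile was taken over detected probes, 0 members were higher and 48 (61.5%) lower. Of all features 60.8% then passed, 4276 higher and 6727 lower. Median scaling and detected probes moved the median of all features by 0.18 and -0.19 (log2). The median of the members lay 0.10 below the median of all features, a gap that no scaling by 1 constant per array can change. Under quantile normalisation, which can change it, the members' median minus that of all features was -0.068.

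**Figure D1:**
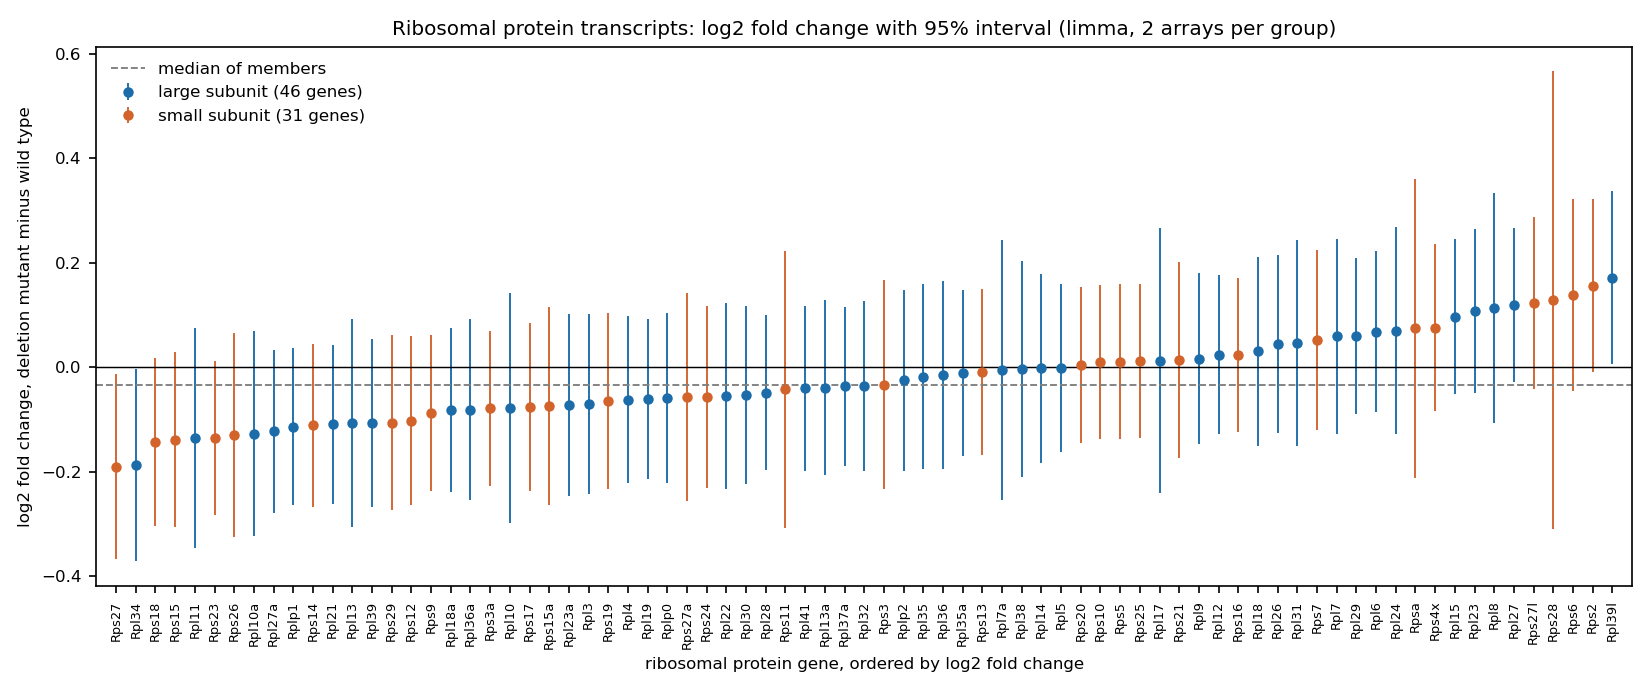
Log2 fold change, deletion-mutant minus wild-type EGFR arrays, of 77 of the 78 tested ribosomal protein genes, ordered from lowest to highest, with 95% intervals from limma (2 arrays per group), blue for the large and orange for the small subunit, and a dashed line at the median of the members. The points run from -0.19 for Rps27 to 0.17 for Rpl39l, and genes of both subunits are spread over the whole order.

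**Figure D2:**
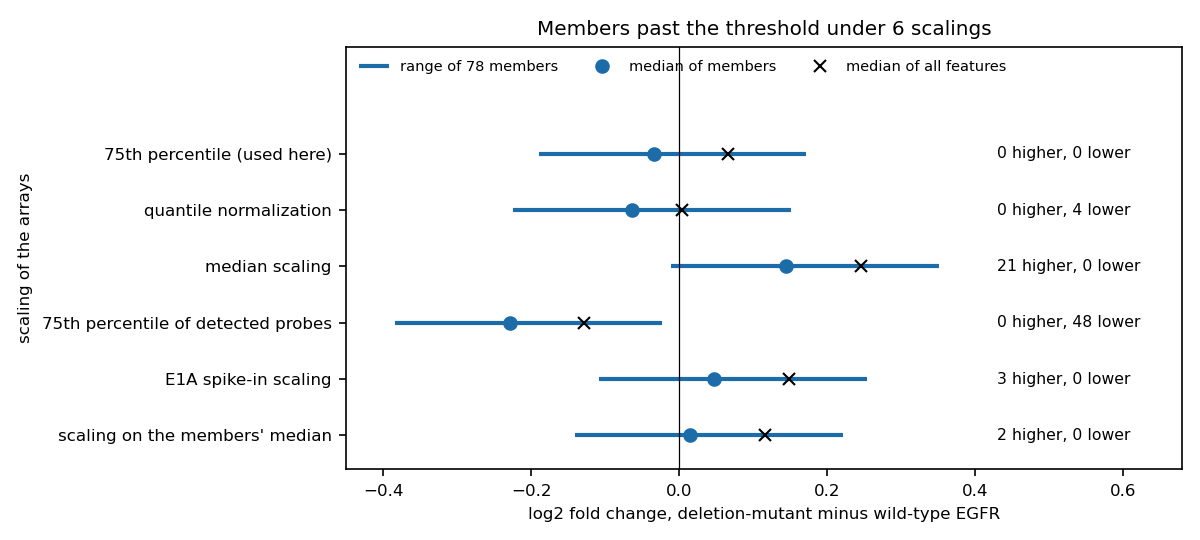
Range (bar) and median (circle) of the log2 fold change of the 78 members, with the median of all features (cross), under 6 ways of scaling the arrays, and the number of members past an adjusted p of 0.05 at the right. The bar moves from below to above 0 with the scaling, and the circle lies left of the cross in each row.

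How flat the members were depended also on what they were set beside. The SD of the group difference across the 78 members was 0.083 (log2). Across the same members, 1 wild-type array minus the other had an SD of 0.071, and 1 deletion-mutant array minus the other 0.091. Over all features these SDs were 0.83, 0.20 and 0.24. A mean of arrays varies less than 1 array, so the likeness of these SDs does not show that the members were equal. With the 75th percentile scaling none of the members had a log2 fold change above 0.2 in either direction, against 69.4% of all features. Under median scaling 21 members lay above 0.2, against 75.1% of all features beyond 0.2 in either direction, and with detected probes 46 lay below -0.2, against 70.5%. Among the 1256 other features whose mean level lay within the range of the members, 37.7% passed the threshold and 39.4% changed by more than 0.2, but their median level of 7.01 was below the 8.54 of the members. Among the 143 other features at or above the members' median level, 9.09% passed and 11.9% changed by more than 0.2. These sets by level were chosen after the values had been seen, and the part of the high signal in the small folds was not tested.

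The precision of these values sets what could have been missed under the 75th percentile scaling. The standard error of a member's log2 fold change had a median of 0.061, and the 95% intervals of 62 of the 78 members lay within 0.3 of 0 on either side. For 77 the interval lay within 0.5. The exception was Rps28, whose interval ran from -0.31 to 0.57. These intervals leave out the choice of scaling, which moved every fold by 0.18 under median scaling and by -0.19 with detected probes. The highest member then lay at 0.35 under median scaling, and the lowest at -0.38 with detected probes. In 42 of the 78 members (53.8%) the arrays of the groups did not overlap, 13 higher and 29 lower in deletion-mutant cells with the 75th percentile scaling, against 81.7% of all features. The split turned with the scaling: 69 higher and 0 lower under median scaling, and 0 higher and 73 lower with detected probes. Without overlap were 88.5% of the members and 84.5% of all features under median scaling. With detected probes these shares were 93.6% and 83.6%.

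The large and the small subunit could not be separated by their folds. The median log2 fold change was -0.030 over the 46 large-subunit genes, 31 of them below 0 and 15 above, and -0.038 over the 32 small-subunit genes, 19 below and 13 above. The difference between the medians of 0.0077 does not depend on a scaling by 1 constant per array, but its sign turned under other processing, between -0.0097 after normexp background correction and 0.027 under quantile normalisation. On each array the median deviation of the members from their own means over the 4 arrays was -0.0028 for the large and 0.0013 for the small subunit in the first wild-type array, 0.038 and 0.032 in the second, -0.014 and -0.019 in the first deletion-mutant array, and -0.0049 and -0.017 in the second. Both subunits were highest on the second wild-type array, and on no array were they further apart than 0.012. Groups of arrays did not overlap for 23 of the 46 large-subunit genes (50%) and 19 of the 32 small-subunit genes (59.4%). Over all features this share was 81.7%.

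As a share of the summed signal of the tested features, the family was smaller on the deletion-mutant arrays. The 78 representative probes held 8.65% of the summed processed signal of the 18093 representative probes on both wild-type arrays, and 7.93% and 7.83% on the deletion-mutant arrays. Division by the summed signal of an array is itself a scaling of that array, and the sum includes the features called higher and lower. The share is therefore relative to the other features and gives no direction of the members that is free of scaling. The groups did not overlap in this share, and with 2 arrays per group the difference was not tested.

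Rps27, a zinc-finger protein of the small subunit, was at the low end. Its levels were 8.65 and 8.75 in wild-type cells and 8.51 on both deletion-mutant arrays, a log2 fold change of -0.19 ± 0.065 (SE, n = 2 per group, limma adjusted p = 0.0656). The groups did not overlap, and all 4 probes of Rps27 were lower, between -0.14 and -0.19. All of them are placed by the array's design on chromosome 9 (mm9), while the gene lies on chromosome 3 in RefSeq, so the signal cannot be divided between Rps27 and a near-identical copy. The probe that starts nearest to the 5′ end of its target is shown because its letters are what was measured.
Rps27 probe, chr9:114891672-114891731, minus strand, mm9: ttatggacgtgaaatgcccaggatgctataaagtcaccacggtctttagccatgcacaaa
Its own fold, -0.14, was the second smallest of the 4 in size.

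Rpl34, a protein of the large subunit, was the other member with an unadjusted p under 0.05 that lay low. Levels were 8.92 and 8.97 in wild-type and 8.81 and 8.70 in deletion-mutant cells, a log2 fold change of -0.19 ± 0.067 (SE, n = 2 per group, limma adjusted p = 0.0743). Its second probe, 53 bases upstream, was lower by itself at -0.27 (adjusted p = 0.0304 with each probe as a feature), and with the mean of both probes the gene passed at -0.23 (limma adjusted p = 0.0359). The representative probe spans more of the genome than its own 60 bases, as a probe across a splice junction does.
Rpl34 probe, chr3:130429830-130431677, minus strand, mm9: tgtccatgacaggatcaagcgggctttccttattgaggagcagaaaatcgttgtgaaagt
Under median scaling the folds of Rps27 and Rpl34 were -0.011 and -0.0080. With detected probes both were called lower (limma adjusted p = 0.00788 and 0.00921), as with an intensity trend and robust variances (0.00746 and 0.00885). Rpl34 was also called lower after normexp background correction (adjusted p = 0.0276). Neither was called under median, quantile or spike-in scaling or when scaled on the members' median.

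Rps18, Rps15 and Rpl11 followed. Rps18, a protein at the head of the small subunit, had 7.74 on both wild-type arrays and 7.63 and 7.57 in deletion-mutant cells (log2 fold change -0.14 ± 0.059 SE, limma adjusted p = 0.103). Its neighbour in the head, Rps15, had 7.86 and 7.93 against 7.73 and 7.79 (-0.14 ± 0.061 SE, adjusted p = 0.122). Rpl11 had 8.67 and 8.72 against 8.63 and 8.48 (-0.14 ± 0.077 SE, adjusted p = 0.199). In each of the 3 the groups did not overlap and the test was not passed. Their calls and signs depended on the settings: under median scaling the folds were positive at 0.036, 0.041 and 0.044, and with detected probes all 3 were called lower (limma adjusted p = 0.00975, 0.0112 and 0.0206). Rps18 and Rps15 were also called lower under quantile normalisation (adjusted p = 0.0388 and 0.0373) and with an intensity trend and robust variances (0.0287 and 0.0362).

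At the other end stood Rpl39l. The protein replaces Rpl39 at the exit tunnel of ribosomes in male germ cells. Its levels were 5.60 and 5.68 in wild-type and 5.81 on both deletion-mutant arrays, a log2 fold change of 0.17 ± 0.061 (SE, n = 2 per group, limma adjusted p = 0.0711). Rpl39 itself had a mean of 7.98 ± 0.023 (SD, n = 2) against 7.88 ± 0.042, a fold of -0.11 ± 0.059 (SE, adjusted p = 0.188). The folds of the pair were opposite in sign under the 75th percentile scaling, and neither passed. Rpl39l was called higher under median scaling at 0.35 (limma adjusted p = 0.00824), in the authors' deposited log2 values (0.00823), under spike-in scaling at 0.25 (0.0314), scaled on the members' median at 0.22 (0.0333) and with an intensity trend and robust variances (0.0134). The fold of Rpl39l was -0.060 under quantile normalisation and -0.023 under scaling on detected probes, where its direction was turned.
Rpl39 probe, chrX:34622696-34623990, minus strand, mm9, stop codon in capitals: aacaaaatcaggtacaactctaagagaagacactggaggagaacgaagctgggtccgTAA

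Rps27l, the paralogue of Rps27 and a known p53 target, had 6.52 and 6.49 in wild-type and 6.59 and 6.67 in deletion-mutant cells. The log2 fold change was 0.12 ± 0.060 (SE, n = 2 per group, limma adjusted p = 0.151), opposite in sign to that of Rps27. The difference between the paralogues was not tested. The direction of Rps27l depended on the scaling, since it was -0.072 both under quantile normalisation and with detected probes and was called higher under median scaling at 0.30 (limma adjusted p = 0.0205) and in the authors' deposited log2 values (0.0208).
Rps27l probe, chr9:66795486-66797176, plus strand, mm9: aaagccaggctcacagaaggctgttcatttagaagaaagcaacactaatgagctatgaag
The remaining pairs gave no comparison, since Rpl3l and Rpl10l were not detected. Their partners had folds of -0.070 ± 0.063 (SE) for Rpl3 and -0.078 ± 0.081 (SE) for Rpl10.

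Rps2, a protein at the entry of the messenger RNA channel, had the second highest fold. Levels were 8.75 and 8.83 in wild-type and 8.95 on both deletion-mutant arrays, a log2 fold change of 0.16 ± 0.061 (SE, n = 2 per group, limma adjusted p = 0.0895), and its probes differed by 0.019.
Rps2 probe, chr17:24857583-24857642, plus strand, mm9: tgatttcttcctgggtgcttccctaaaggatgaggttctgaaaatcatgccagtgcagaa
The phosphoprotein Rps6 had 8.75 and 8.84 against 8.90 and 8.97, a fold of 0.14 ± 0.067 (SE, adjusted p = 0.147). Rps2 was called higher under median scaling at 0.34 (limma adjusted p = 0.00925), in the authors' deposited log2 values (0.00922), under spike-in scaling (0.0373), scaled on the members' median (0.0399) and with an intensity trend and robust variances (0.0185). Rps6 was called higher under median scaling (adjusted p = 0.0174), in the authors' deposited log2 values (0.0174) and with the trend and robust variances (0.0408). Scaled on detected probes the signs were turned, with -0.038 for Rps2 and -0.055 for Rps6, and the mean of its probes gave Rps6 -0.035.

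Rps28 shows how 1 array can make a member stand out. Its representative probe read 8.87 and 8.95 in wild-type and 9.25 and 8.82 in deletion-mutant cells, so that the first deletion-mutant array was the highest and the second the lowest of the 4. The log2 fold change was 0.13 ± 0.16 (SE, n = 2 per group, limma adjusted p = 0.527), and its second probe gave -0.073. Without the second deletion-mutant array Rps28 was called higher at 0.34 (adjusted p = 0.0446), with the lone array assumed to vary like the others.

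**Figure D3:**
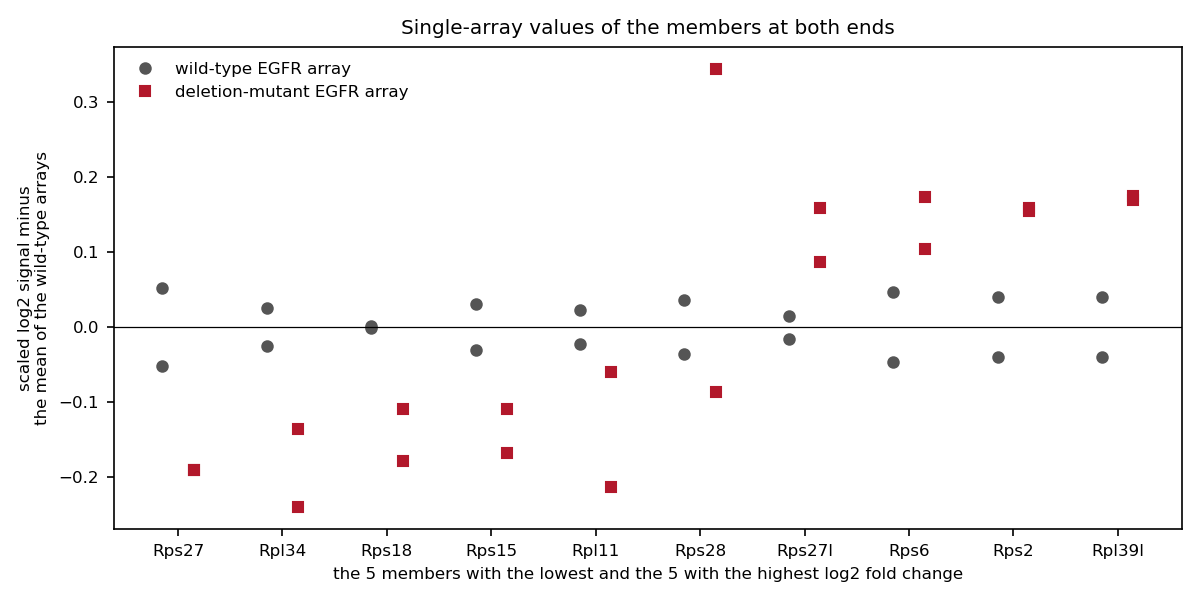
Scaled log2 signal of the 5 members with the lowest and the 5 with the highest log2 fold change, on each of the 4 arrays, as the difference from the mean of the 2 wild-type arrays (grey circles wild type, red squares deletion mutant). In 9 of the 10 the red squares lie on 1 side of the grey circles, and in Rps28 the red squares lie on both sides.

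The stalk proteins and Rpl5 lay within the body of the family. Of the stalk proteins, which bind the elongation factors, Rplp0 had 9.21 and 9.26 against 9.20 and 9.15 (log2 fold change -0.059 ± 0.060 SE), Rplp1 8.82 and 8.84 against 8.71 and 8.72 (-0.11 ± 0.055 SE) and Rplp2 9.15 and 9.06 against 9.09 and 9.07 (-0.025 ± 0.063 SE). The groups overlapped for Rplp2 only. Rpl5, which with Rpl11 holds Mdm2 when ribosome assembly fails, had 7.23 and 7.30 against 7.25 and 7.28 (-0.0014 ± 0.059 SE). Rpsa, the laminin receptor precursor, had a mean of 8.80 ± 0.048 (SD, n = 2) against 8.88 ± 0.18 (0.075 ± 0.10 SE), with the deletion-mutant arrays on both sides of the wild-type arrays. Among the genes nearest to the members' median were Rps3, Rpl32, Rpl37a and Rpl13a, with folds between -0.034 and -0.039.

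Single probes departed from their genes mostly where the signal was low. Of the 78 tested members, 61 had several kept probes, and in 49 of these the folds of the probes lay within 0.2 of each other, with a median range of 0.11. Of the 181 kept probes, each fitted as a feature, 2 were higher and 4 lower at an adjusted p of 0.05 in limma, against 56.7% of all 25162 probes. The 17 probes with levels below 5 on all arrays, from 16 genes, had folds with an SD of 0.31, and 4 of them passed. The other 164 had folds between -0.30 and 0.19, with an SD of 0.090, and 2 passed. The limit of 5 was chosen after the values had been seen.

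Rpl22, a protein of the large subunit that also binds RNA outside the ribosome, held the largest of these departures. Its bright probe read 8.10 and 8.21 in wild-type and 8.10 and 8.10 in deletion-mutant cells (log2 fold change -0.055). A dim probe 1497 bases downstream read 4.49 and 4.41 in wild-type and 3.64 and 3.72 in deletion-mutant cells, 1.71-fold lower (-0.77 ± 0.067 SE, n = 2 per group, limma adjusted p = 0.00213). The groups were far apart at the dim probe and overlapped at the bright one, and the gap of 0.72 between the folds does not change with a scaling by 1 constant per array.

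Rpl30, a protein of the large subunit, showed the opposite at a probe upstream of its bright one. This dim probe, 1818 bases upstream in the genome, read 2.76 and 2.88 against 3.25 and 3.18, 1.32-fold higher (0.40 ± 0.074 SE, n = 2 per group, limma adjusted p = 0.0135), while the bright probe gave -0.053. Of the 15 low probes downstream of the bright probe of their gene, 14 had a negative fold. After median scaling 4 of all 17 low probes were negative and 13 positive, while the folds of the dim probes of Rpl22 and Rpl30 kept their signs under the 6 scalings of the scaling plot. The dim probe of Rpl30 missed the threshold under quantile normalisation (adjusted p = 0.0682) and under scaling on detected probes (adjusted p = 0.0629). Whether these probes lie in introns, untranslated ends or other transcripts was not analysed here for want of gene models on the probes' build.

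The other probes past the threshold were smaller departures. In Rpl27a a probe 1659 bases downstream gave -0.30 ± 0.077 (SE, limma adjusted p = 0.0328), and in Rps6 one 685 bases downstream gave -0.25 ± 0.066 (SE, adjusted p = 0.0356), opposite in sign to the bright Rps6 probe. Both, and the second Rpl34 probe, missed the threshold after median scaling, where their folds were -0.12, -0.069 and -0.088. Another gene with widely differing probes was Rps15a, whose probe 4322 bases downstream gave 0.28 ± 0.16 (SE, adjusted p = 0.198) at the lowest level of all kept probes.

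**Figure D4:**
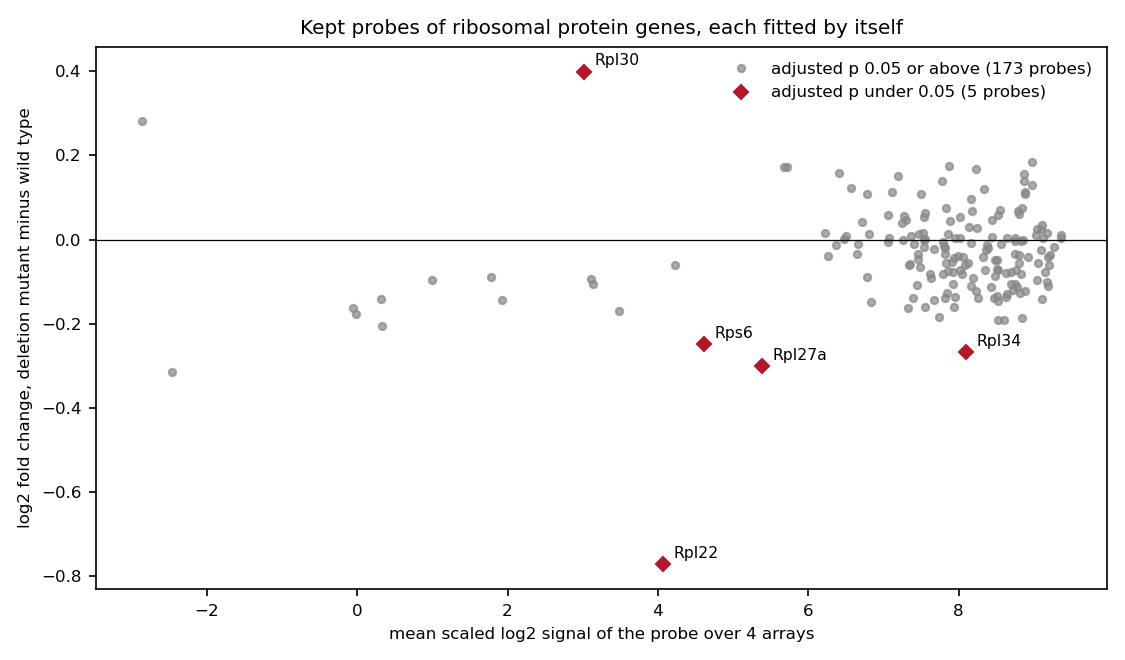
Log2 fold change, deletion-mutant minus wild-type EGFR arrays, of 178 of the 181 kept probes of ribosomal protein genes against their mean scaled log2 signal over 4 arrays, with 5 probes past an adjusted p of 0.05 (limma, each probe as a feature) as red diamonds named by gene. Bright probes lie in a narrow band around 0, and the probes of Rpl22 at -0.77 and Rpl30 at 0.40 lie outside it at lower signal.

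Copies of ribosomal protein genes are many in the mouse genome, and the probes reflect this. Of the 186 probes, 24 from 16 genes were placed on another chromosome than that of the gene in RefSeq, among them every probe of Rpl36, Rps27, Rps29 and Rps4x. Their folds lay between -0.19 and 0.11, and none of the 24 passed. With such probes left out, 74 members were tested and none passed in either direction (4 had an unadjusted p under 0.05). For Rpl7a a pair of probes was placed on the same bases and differed at 6 of 60 positions, shown in capitals.
Rpl7a first probe, chr2:26768759-26768818, plus strand, mm9: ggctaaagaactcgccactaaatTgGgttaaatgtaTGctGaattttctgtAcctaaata
Rpl7a second probe, chr2:26768759-26768818, plus strand, mm9: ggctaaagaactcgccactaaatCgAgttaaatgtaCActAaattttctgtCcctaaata
Counted from the first base of the first probe, the substitutions to the second were T24C, G26A, T37C, G38A, G41A and A52C. The first probe read 7.73 and 7.87 in wild-type and 7.71 and 7.87 in deletion-mutant cells (log2 fold change -0.0050), and the second 5.50 and 5.67 against 5.65 and 5.86 (0.17, limma adjusted p = 0.25), so that within each group the arrays differed as much as the groups did. Among the 186 probes there were 20 pairs, from 17 genes, that overlapped by at least 30 bases and differed within the overlap at up to 10% of positions. No probe of a member overlapped in this way with a probe of another member.

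Members that lacked the pyrimidine run overlapped in fold with those that had it. Of the 57 tested members with a promoter entry, the 49 with the run had folds between -0.19 and 0.17 with a median of -0.036, and the 8 without it, Rpl23, Rpl24, Rplp0, Rps13, Rps28, Rps3, Rps4x and Rpsa, between -0.059 and 0.13 with a median of 0.073. The ranges overlap, the split was made after the folds were known, and no test was made of it. Its direction does not depend on a scaling by 1 constant per array.

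Some genes of ribosomal proteins or with similar names lie outside the rule. Fau, whose product is cut to release a protein of the small subunit, and Gnb2l1, the scaffold protein Rack1 of the small subunit, had log2 fold changes of -0.058 ± 0.056 and -0.049 ± 0.056 (SE), both within the range of the members and not past the threshold. Rpl22l1, the paralogue of Rpl22, had 0.11 ± 0.056 (SE, limma adjusted p = 0.163). Higher in deletion-mutant cells were Rpl36al, the paralogue of Rpl36a, at 0.32 ± 0.075 (SE, limma adjusted p = 0.0233), Rpl7l1, which takes part in ribosome assembly, at 0.81 ± 0.072 (adjusted p = 0.00173), and Rps19bp1, which binds Rps19 and is no part of the ribosome, at 0.87 ± 0.075 (adjusted p = 0.00167). Rpl36a itself had -0.081 ± 0.063 (SE). Of the 7 tested genes of this list 3 were thus higher and 0 lower, against 34.6% higher and 24.2% lower of all features. Under scaling on detected probes, where 60.8% of all features passed, 2 were higher and 3 lower. The eighth, Rps4y2, was not well above background.

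Other genes whose messages carry a TOP motif or encode elongation and initiation factors made a list of 20. Of these, 3 were higher, 1 was lower and 16 did not pass, against 34.6% higher and 24.2% lower of all features. Their median log2 fold change was 0.023, against 0.066 over all features. The elongation factors Eef1a1 and Eef2 had -0.076 ± 0.058 and -0.069 ± 0.065 (SE). Higher were Eif3l at 0.25 ± 0.055, Nap1l1 at 0.24 ± 0.054 and Impdh2 at 0.19 ± 0.054, and lower was Eif4b at -0.22 ± 0.061 (SE, limma adjusted p between 0.0203 and 0.0409). Without any 1 of the arrays 0 were higher and 0 lower in limma, and after median scaling 11 were higher and 0 lower. With detected probes 0 were higher and 7 lower (median -0.17), and under quantile normalisation 0 were higher and 6 lower (median -0.095). Of all features, 65.4% passed after median scaling, 60.8% with detected probes and 57.2% under quantile normalisation.

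Of 8 chaperones and assembly factors that guard single ribosomal proteins before they join the ribosome, 5 were higher, 1 was lower and 2 did not pass, against the 34.6% higher and 24.2% lower of all features. Grwd1, the chaperone of Rpl3, went from a mean of 2.04 ± 0.076 (SD, n = 2) with the wild-type receptor to 2.82 ± 0.060 with the mutant, 1.71-fold higher (limma adjusted p = 0.0019). Ltv1, an assembly factor of the small subunit, was 1.69-fold higher (adjusted p = 0.00175) and Pdcd2l 1.55-fold higher (adjusted p = 0.00185). Smaller rises were those of Pdcd2, the chaperone of Rps2, at 0.30 ± 0.057 (SE), and Bccip, which binds Rpl23, at 0.29 ± 0.084. The fold of Heatr3, which brings Rpl5 into the nucleus, was -0.30 ± 0.056 (SE, adjusted p = 0.0124). Tsr2, the chaperone of Rps26, and Aamp had -0.0074 and 0.077 and did not pass. Scaled on detected probes 3 were higher and 2 lower, and after any leave-out of 1 array 3 were higher and 0 lower.

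Genes that control the translation of these messages formed a further list. Of 15 tested genes for mTOR complex components, cap-binding proteins, La-related proteins and kinases of Rps6, 11 were higher and 0 lower, with a median of 0.57, against 34.6% higher, 24.2% lower and a median of 0.066 over all features. Between 9 and 12 were higher and up to 1 lower over the alternatives run for this list. Eif4ebp1, the inhibitor of the cap-binding protein, rose from 5.45 ± 0.014 (SD, n = 2) with the wild-type receptor to 6.45 ± 0.047 with the mutant, 2.00-fold higher (limma adjusted p = 0.000772). Eif4e, the cap-binding protein itself, was 1.91-fold higher (adjusted p = 0.000897). Rptor, the subunit that gives mTOR complex 1 its substrates, was 1.71-fold higher (adjusted p = 0.00201), while Mtor had 0.086 ± 0.061 (SE, adjusted p = 0.287). Larp1, which binds TOP messages, was 1.49-fold higher (adjusted p = 0.00235), and Cnbp, which also binds such messages, 1.47-fold (adjusted p = 0.0029).

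The kinases of Rps6 belong to several families. Rps6ka6, Rps6ka3 and Rps6ka2, which encode RSK kinases driven by ERK, were 1.98-fold, 1.93-fold and 1.91-fold higher in deletion-mutant cells (limma adjusted p between 0.000783 and 0.00123). Rps6kb1 and Rps6kb2, the S6 kinases driven by mTOR, had 0.0056 ± 0.074 and -0.12 ± 0.080 (SE) and did not pass. The related kinase Rps6ka4 was 1.45-fold higher, Rps6ka5 did not pass, and Rps6ka1 was not well above background. The difference between the families was not tested. Their substrate gene Rps6 had the fold of 0.14 given above.

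**Figure D5:**
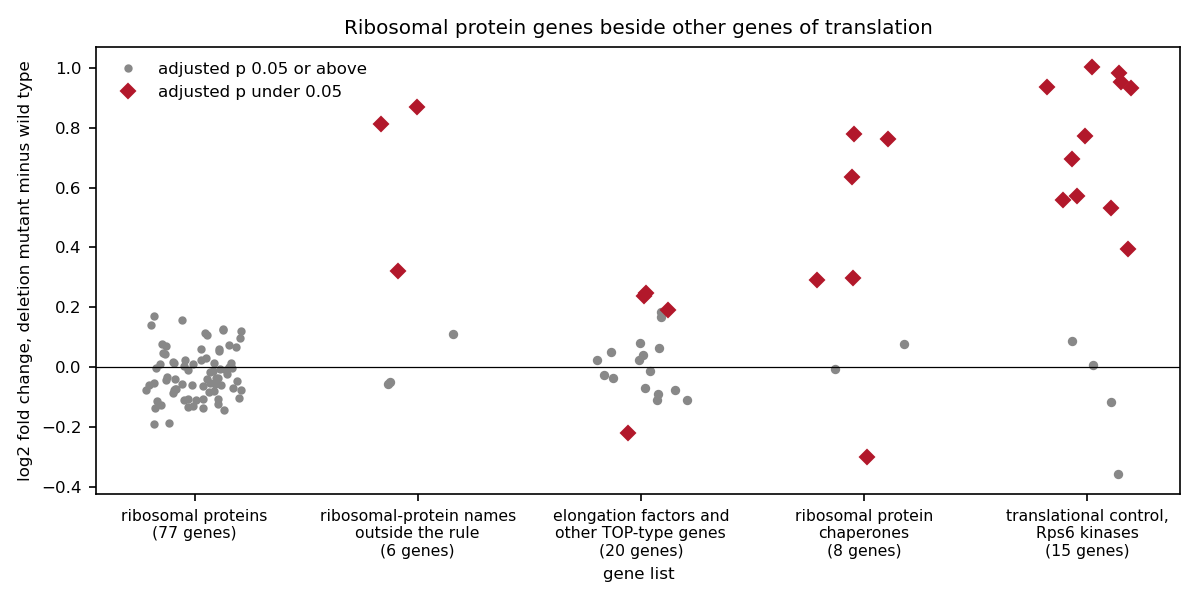
Log2 fold change, deletion-mutant minus wild-type EGFR arrays, of 77 ribosomal protein genes and of 4 lists of other genes of translation, 1 point per gene spread sideways at random, with genes past an adjusted p of 0.05 (limma) as red diamonds and the others as grey circles. The ribosomal protein genes lie between -0.19 and 0.17 with no diamond, and 11 of the 15 control genes are diamonds above 0.39.

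Of the genes through which unassembled Rpl5 and Rpl11 act, Trp53 was higher at 0.59 ± 0.064 and Mdm2 at 0.38 ± 0.054 (SE, limma adjusted p = 0.00283 and 0.00567). Mdm4 had -0.29 ± 0.14 (SE, adjusted p = 0.136), and Cdkn2a was not well above background. Of all features 34.6% were higher and 24.2% lower. Of the 3 tested genes, 1 was higher and 0 lower under quantile normalisation, and 2 were higher and 1 lower with detected probes. Under median and spike-in scaling 2 were higher and 0 lower. Between 57.2% and 65.4% of all features passed under these other scalings.

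On the arrays as a whole, 42.9% to 46.9% of the non-control probes were well above background, less in each deletion-mutant array than in either wild-type array. All 4 arrays lay on 1 slide, the wild-type arrays in column 2 and the deletion-mutant arrays in column 3, so that position and group cannot be told apart. The 10 fibroblast markers were detected on all arrays, 7 of them lower and 1 higher in deletion-mutant cells. Of all features 24.2% were lower and 34.6% higher. The summed level of these markers was 2020 and 2084 times the 75th percentile in wild-type and 1475 and 1516 times in deletion-mutant arrays. Of the defining markers of other cells, Epcam, Cdh1 and Krt18 of epithelium, Cdh5 and Tek of endothelium and Ptprc of leukocytes were not well above background on any array. Krt8 of epithelium was well above background on the 2 deletion-mutant arrays only. Detected on all 4 arrays were Pecam1 and Kdr of endothelium, with folds of -0.40 (limma adjusted p = 0.0111) and -0.028 (0.756), and Itgam, Cd68 and Csf1r of leukocytes. The summed level of the 3 tested leukocyte markers, mostly Itgam, was 35.9 and 37.9 in wild-type and 21.0 and 21.0 in deletion-mutant arrays. The part of these shifts in the ribosomal protein values was not tested.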

How the data were processed

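The deposited text files give each spot's processed signal as intensity on a linear scale, after background subtraction and detrending, with raw brightness and flags, per the file headers (Feature Extraction 10.10.1.1, protocol GE1_1010_Sep10, coordinates on mm9). The authors also deposited log2 values, which differ from the log2 of that signal by a single constant on each array.

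Flagged and control spots were left out, spots of a probe averaged, and each array's 75th percentile subtracted in log2. The 25162 probes well above background on both arrays of a group gave 18093 features. limma 3.58.1 (R 4.3.3, prior SD 0.0747) compared the groups, with Benjamini-Hochberg adjustment over all features. The fit was checked on simulated arrays with a common SD and 200 features changed. Such arrays cannot test the choice of scaling or unequal variances. Figures used matplotlib 3.10.9.

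Named were members that pass and lie at least 0.5 from the members' median, members changed 2-fold, paralogues ending in l with their partners, stalk genes, Rpsa, Rps6, Rpl5, Rpl11, the 5 members nearest the median, up to 4 whose probes differ most, undetected members, and up to 4 genes per context list with the largest change, or all where a count was 5 or fewer. The 5 lowest and 5 highest members were added after their values were seen. Members and lists were chosen with earlier results of these data known. Alternatives covered background correction, 6 scalings, filters, variance model, probe summary, replicate block and leaving out each array. Single genes named by these rules are in part not reported here.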

Additional observations from a re-analysis of the deposited data

How the results depend on the processing

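The counts of members past the threshold, 0 higher and 0 lower, changed with the scaling. Higher members were 21 under median scaling and 21 in the authors' deposited log2 values, which are scaled nearly alike. They were 3 under spike-in scaling and 2 when scaled on the members' own median. Lower members were 48 with the 75th percentile of detected probes, 4 under quantile normalisation and 1 after normexp background correction. Over all features, between 57.2% and 65.4% passed under these settings. With an intensity trend and robust variances 3 were higher and 5 lower, with the mean of a gene's probes 2 were lower, and with every probe by itself 2 were higher and 4 lower. Neither the absence of a filter nor a filter on all 4 arrays gave a call. Leaving out each array in turn gave 0 to 1 higher and 0 lower. The subunit medians (large, small) became 0.15 and 0.14 under median scaling, 0.15 and 0.14 in the authors' values, -0.22 and -0.23 with detected probes, and 0.052 and 0.044 under spike-in scaling, and the small-subunit median was -0.076 under quantile normalisation. Leaving out each array gave small-subunit medians from -0.062 to -0.0071. The difference between them, large minus small, became -0.0097 after normexp, 0.027 under quantile normalisation, 0.016 without a filter, -0.00065 with the mean of a gene's probes, -0.0024 with every probe by itself, -0.0021 with own-chromosome probes, and -0.0048 to 0.014 with each array left out. Among 26 named members tested, 320 values over the alternatives kept direction and side of the threshold, 43 passed it and 78 moved, with none of the called values turned. Both groups carry replicate numbers 1 and 2, but the deviations of same-numbered arrays hardly correlated (0.0472 over all features, 0.263 over the members), so the numbers are not taken as pairs. With the replicate number as a block, 0 members were higher and 0 lower (lowest adjusted p = 0.0928). Only own-chromosome probes, an alternative added after the data were seen, gave 0 and 0 of 74. The number of arrays limits the precision.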
